A study of Mus musculus with 30 samples.

Results

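Cells with a low signal of a Sox2 reporter (Sox2-low) were compared with cells without that signal (Sox2-negative), both sorted from the antrum of Sox2-Tomato mice. The antrum is the distal, hormone-rich part of the stomach, and in these mice a red fluorescent protein stands in for Sox2, so the gates follow the reporter and not the transcript. The comparison rests on 6 of the 30 libraries of the series, 3 Sox2-low and 3 Sox2-negative, chosen by their titles. The 3 Sox2-high libraries of the same reporter line entered the fit to estimate the spread. All 9 libraries carry the genotype label WT beside the name of the reporter line, and the other 21 libraries come from other sorts. Libraries with the same number were sorted on 1 day, so each day gives a pair. The sort sheet records 80000, 66900 and 61910 sorted cells for Sox2-low libraries 1, 2 and 3, against 15535, 27770 and 14170 for Sox2-negative libraries 1, 2 and 3. The 9 libraries held 23810482 to 34437305 reads. Values are normalized counts, that is, reads divided by 1 size factor per library, with no correction for gene length, so levels are compared between libraries and not between genes. Differences are on the scale of log2(normalized count + 1), Sox2-low minus Sox2-negative, with their standard error (SE). The number of animals in a sort is not given in the sources used here, so the p-values cover the spread from sort to sort, which may be technical. Strain, age and sex are likewise not given there. RNA was amplified with a low-input SMARTer kit, and no molecular identifiers are stated.

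The antral gland renews itself from progenitors in its isthmus and base. It holds surface mucous (pit) cells, gland mucous cells, tuft cells and hormone cells, of which the gastrin-secreting G cell is the best known in this region. Sox2 is a transcription factor of the foregut, kept in the adult stomach and known there from progenitor cells. Cd74, the invariant chain of MHC class II, marks antigen-presenting cells and can also be made by epithelium under interferon.

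No gene passed the test between Sox2-low and Sox2-negative libraries. Of 15064 genes tested, 0 (0%) had an adjusted p under 0.05 in limma with the sort day as a block (Benjamini-Hochberg, BH), and the smallest adjusted p was 0.162. An unadjusted p under 0.05 was found for 2513 genes (16.7%), of which 912 (6.05%) were higher and 1601 (10.6%) lower in Sox2-low libraries. The lower ones included gastrin, other hormone and granule genes and genes of antigen-presenting cells, and the higher ones included Sox21 and mitosis genes. The edgeR quasi-likelihood test on recovered reads also called 0 genes, with 2411 at an unadjusted p under 0.05. DESeq2 called 799 of the 13895 genes to which it gave an adjusted p (5.75%), 101 higher (0.727%) and 698 lower (5.02%). Without Sox2-negative library 2, limma called 1440 of 14923 genes (9.65%), 454 higher (3.04%) and 986 lower (6.61%), and without all libraries of sort day 2 it called 865, 191 higher and 674 lower. Leaving out any other single Sox2-low or Sox2-negative library, or day 1 or day 3, gave 0 calls, and single Sox2-high libraries were not left out. Of the 3 day pairs that of day 2 correlated most closely (r = 0.983), so leaving out its Sox2-negative library removes the closest pair. Calls without that library, here and below, come from the same data and are no separate support. Of the 799 genes called by DESeq2, 675 were also called by limma without Sox2-negative library 2, which is 84.5% of the first list and 46.9% of the second.

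Each Sox2-negative library correlated more closely with the Sox2-low library of its own day than with the other Sox2-negative libraries. Over 10754 genes with a mean normalized count of at least 100, log2 levels of the Sox2-low and Sox2-negative libraries of 1 day correlated at r = 0.885 on day 1, 0.983 on day 2 and 0.941 on day 3. Among Sox2-negative libraries r was 0.813 between 1 and 2, 0.83 between 1 and 3, and 0.938 between 2 and 3, so library 1 was the farthest from the others of its group. On sort day 2, 141 of these genes (1.31%) differed more than 2-fold between Sox2-low and Sox2-negative, against 1795 (16.7%) on day 1 and 859 (7.99%) on day 3. Of the genes tested, 697 (4.63%) passed the filter on low values (10 normalized counts in 3 libraries) only because of Sox2-negative libraries and 572 (3.8%) only because of Sox2-low libraries. Differences of the same sign on 3 of 3 days were found for 3732 genes that were higher (24.8% of those tested) and 3808 that were lower (25.3%). For 764 genes (5.07%) every Sox2-low library lay above every Sox2-negative library, and for 1361 genes (9.03%) every one lay below. The 10 most abundant genes took 7.39 to 13.4% of reads in Sox2-low libraries and 9.42 to 27.6% in Sox2-negative libraries. The sorted cells were also most numerous in library 2 among the Sox2-negative ones, and the part of cell number in the results was not tested.

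Sox2, the gene that the gate reports, was at 374, 662 and 709 in Sox2-low libraries, against 36.6, 442 and 304 in Sox2-negative libraries, and at 1355, 3628 and 2849 in Sox2-high libraries. It was higher in Sox2-low on each day, but Sox2-negative library 2 lay above Sox2-low library 1, so the groups overlapped. The log2 difference was 1.71 (SE 0.46), with a limma BH adjusted p of 0.189. The two-sided exact permutation p was 0.2, and 3 against 3 libraries cannot go below 0.1. Unlike limma with its block, this permutation test, here and below, ignores the pairing by sort day. Without Sox2-negative library 2 the log2 difference was 2.18 (SE 0.45, limma BH adjusted p = 0.0268). Epcam, an adhesion molecule of epithelial cells, was at 28516, 20359.7 and 19794 in Sox2-low libraries, against 29378, 21306 and 24496 in Sox2-negative libraries (log2 difference -0.14, SE 0.11, limma unadjusted p = 0.258). Its groups overlapped, and its exact permutation p was 0.5. Among 8 tested Sox family genes, Sox21, a Sox2-related factor, was at 2431, 4167 and 3719 in Sox2-low libraries, against 873, 3127 and 1835 in Sox2-negative libraries (log2 difference 0.97, SE 0.21, limma unadjusted p = 0.00165). Sox9, a factor of gland progenitors, was at 6112, 6198 and 7129.9 in Sox2-low libraries, against 6162, 7369 and 6236 in Sox2-negative libraries (log2 difference -0.02, SE 0.14, limma unadjusted p = 0.878). Besides Sox2 and Sox21, Sox5 alone of the 8 had an unadjusted limma p under 0.05, with lower values in Sox2-low libraries (-0.72, SE 0.28). It was named after its values were seen.

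**Figure D1:**
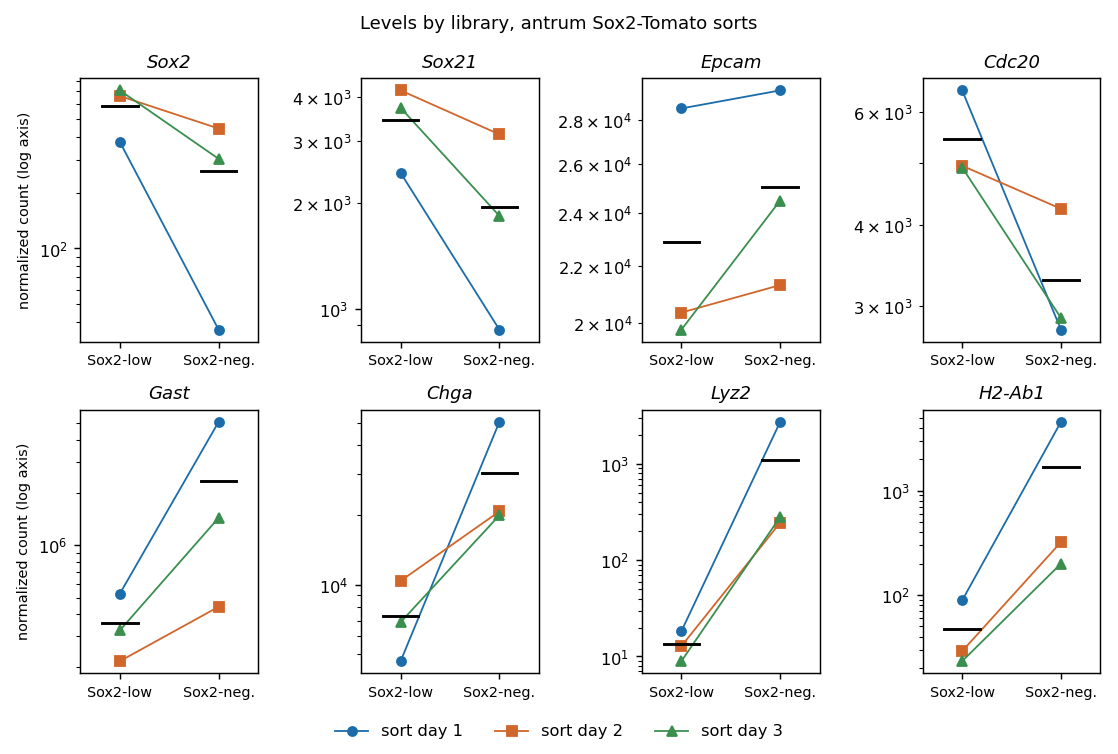
Normalized counts on log axes of 8 genes in Sox2-low (left) and Sox2-negative (right) antrum libraries, with a line for each sort day and a black bar for the mean of 3. Sox2 and Sox21 lay higher in the Sox2-low library of each day, and Gast, Chga, Lyz2 and H2-Ab1 lower, with the flattest lines of Sox2, Sox21 and Cdc20 on day 2.

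Gastrin, peptide YY and pancreatic polypeptide transcripts lay lower in Sox2-low libraries on every sort day, while somatostatin and ghrelin transcripts differed in sign between days. Gast, the acid-stimulating hormone of G cells, was at 526462, 215923 and 324292 in Sox2-low libraries, against 5094825, 442815 and 1434596 in Sox2-negative libraries. It was lower in Sox2-low on each day, although Sox2-low library 1 lay above Sox2-negative library 2. The log2 difference was -2.15 (SE 0.53), with a limma BH adjusted p of 0.18, and the exact permutation p was 0.2. DESeq2 gave it an adjusted p of 0.44, and limma without Sox2-negative library 2 gave 0.00677. In these bulk samples, fewer cells of a type and less RNA per cell cannot be told apart.

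Peptide YY (Pyy), a hormone of the lower gut, was at 15112, 7426 and 6967 in Sox2-low libraries, against 144422, 15793 and 32116 in Sox2-negative libraries. Every Sox2-low library lay below every Sox2-negative one (log2 difference -2.18, SE 0.38, limma unadjusted p = 0.000417). Pancreatic polypeptide (Ppy) was at 296, 222 and 160.4 in Sox2-low libraries, against 19338, 1949 and 3647 in Sox2-negative libraries, also without overlap (log2 difference -4.55, SE 1.20, limma unadjusted p = 0.00636). Proglucagon (Gcg) was at 145, 339 and 137 in Sox2-low libraries, against 14854, 4605 and 1343 in Sox2-negative libraries, and its spread was wide (log2 difference -4.57, SE 1.95, limma unadjusted p = 0.0529). Cholecystokinin (Cck), which stimulates gallbladder and pancreas, was at 1169, 345 and 561 in Sox2-low libraries, against 6663, 600.2 and 2063 in Sox2-negative libraries (log2 difference -1.73, SE 0.35, limma unadjusted p = 0.00115). For Cck, Sox2-negative library 2 lay below Sox2-low library 1, so the groups overlapped. In contrast, the somatostatin of D cells (Sst) was at 188152, 90688 and 70864 in Sox2-low libraries, against 142234, 68134 and 128777 in Sox2-negative libraries, with groups that overlapped (log2 difference -0.02, SE 0.28, limma unadjusted p = 0.958). Ghrelin (Ghrl), the hunger hormone of X/A-like cells, was at 19899.9, 8881 and 4802 in Sox2-low libraries, against 21618, 6018 and 2718 in Sox2-negative libraries (log2 difference 0.42, SE 0.64, limma unadjusted p = 0.528). Ghrl was highest on sort day 1 in both groups. The incretin Gip was at 4259.5, 1439.7 and 1489 in Sox2-low libraries, against 6492, 2394 and 2837 in Sox2-negative libraries (log2 difference -0.76, SE 0.81, limma unadjusted p = 0.376). It was lower in Sox2-low on each day, by amounts within the spread of the fit.

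The remaining hormones with a mean of at least 100 were nesfatin precursor Nucb2, secretin (Sct), neuropeptide W (Npw), amylin (Iapp) and enkephalin precursor (Penk). Their log2 differences were -0.99 (SE 0.28), -0.75 (SE 0.28), -1.10 (SE 0.29), -0.49 (SE 0.35) and 0.13 (SE 0.39), with limma unadjusted p of 0.00743, 0.0289, 0.00478, 0.199 and 0.738. Of 17 tested hormone genes, 8 were lower and 0 higher at an unadjusted limma p under 0.05, beside 10.6% and 6.05% of all genes tested. The median was -0.76, beside 0.01 over all genes tested. Limma called 5 of the 17 lower without Sox2-negative library 2, beside 6.61% of all genes. The summed level of the 20 measured hormone genes was 759601, 327514 and 411295 in Sox2-low libraries, against 5457282, 544948 and 1611934 in Sox2-negative libraries. The groups overlapped, with an exact permutation p of 0.2. Gast made up most of that sum in each library, so the sum says little about the other hormones.

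**Figure D2:**
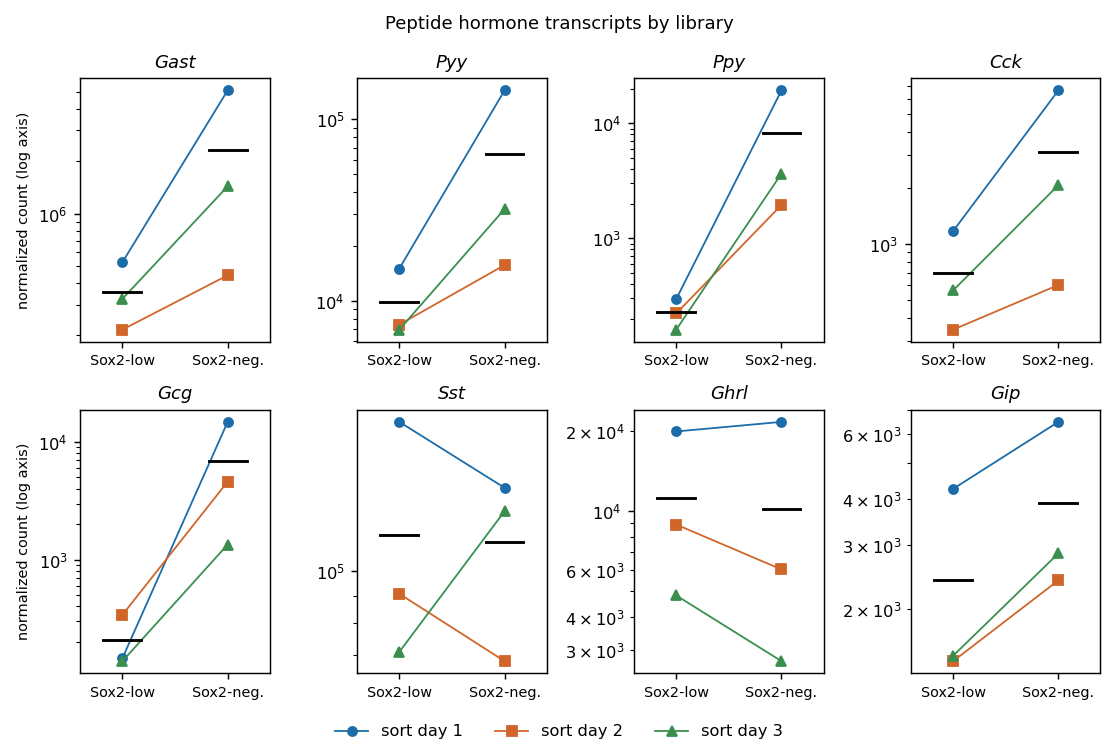
Normalized counts on log axes of 8 peptide hormone transcripts in Sox2-low (left) and Sox2-negative (right) libraries, with a line for each sort day and a black bar for the mean. Pyy, Ppy and Gcg do not overlap between the groups, whereas the sign of the difference in Sst and Ghrl varies between days.

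Genes of the hormone granule lay lower in Sox2-low libraries. All 13 tested granins and processing genes had an unadjusted limma p under 0.05 and a lower value, beside 10.6% of all genes tested. Their median log2 difference was -1.85, and in 12 of them the groups did not overlap, beside 9.03% of all genes. None passed over all genes. All 13 were called lower without Sox2-negative library 2, the only Sox2-low or Sox2-negative library whose removal alone gave calls. Over all genes tested in that fit 6.61% were called lower. Carboxypeptidase E (Cpe), which trims prohormones, was at 12362, 15889 and 21951 in Sox2-low libraries, against 83408, 28288 and 90354 in Sox2-negative libraries (log2 difference -1.88, SE 0.42, limma unadjusted p = 0.00197). Chromogranin B (Chgb), a core protein of the granule, was at 12906, 22405 and 21746 in Sox2-low libraries, against 59923, 31541 and 59221 in Sox2-negative libraries (log2 difference -1.39, SE 0.31, limma unadjusted p = 0.00182). Chgb was called by limma without Sox2-negative library 2 (BH adjusted p = 0.00355) but had a DESeq2 adjusted p of 0.673. Chromogranin A (Chga), chosen after its values were seen, was at 4676, 10394 and 6889.6 in Sox2-low libraries, against 50529.7, 20737 and 19954 in Sox2-negative libraries (log2 difference -1.99, SE 0.39, limma unadjusted p = 0.000915). All 3 genes lay lower in each Sox2-low library than in any Sox2-negative one, with Sox2-negative library 2 the nearest for Cpe and Chgb. The list's summed level was 49643, 75097 and 80428 in Sox2-low libraries, against 355149, 125338 and 309294 in Sox2-negative libraries, without overlap. By day, the median of the list was -2.75 on day 1, -0.81 on day 2 and -2.05 on day 3.

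Transcription factors of endocrine cells lay mostly lower in Sox2-low libraries, with members on both sides. Of 22 tested factors, 12 were lower and 2 higher at an unadjusted limma p under 0.05, beside 10.6% and 6.05% of all genes tested. Their median was -1.06. Without Sox2-negative library 2, 12 were called lower and 0 higher, beside 6.61% and 3.04% of all genes. Nkx6-3, a factor of the G cell lineage, was at 6599.5, 5460.1 and 6203 in Sox2-low libraries, against 15921, 6543 and 11607 in Sox2-negative libraries (log2 difference -0.81, SE 0.25, limma unadjusted p = 0.0107). Peg3, an imprinted zinc finger gene, was at 642, 2228 and 2459.9 in Sox2-low libraries, against 3731, 2916 and 6447 in Sox2-negative libraries (log2 difference -1.44, SE 0.35, limma unadjusted p = 0.0034). Nkx6-3 overlapped through Sox2-negative library 2, and Peg3 did not overlap. The 2 higher ones, named after their values were seen, were Neurog3, which starts the endocrine fate, and Lmx1b. Neurog3 was at 528, 335 and 422 in Sox2-low libraries, against 80.1, 219 and 239 in Sox2-negative libraries, without overlap (log2 difference 1.38, SE 0.47, limma unadjusted p = 0.0194, with a limma BH adjusted p of 0.126 without Sox2-negative library 2). Lmx1b was at 2.89, 12.8 and 13.7 in Sox2-low libraries, against 0, 2.99 and 3.93 in Sox2-negative libraries, with overlap and within a few reads of 0 (log2 difference 1.78, SE 0.68, limma unadjusted p = 0.0299).

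Among 15 tested receptors of endocrine cells 7 were lower at an unadjusted limma p under 0.05, and the median was -1.46. In this paragraph such counts stand beside 10.6% lower and 6.05% higher over all genes tested. Sstr1, a somatostatin receptor, was at 413, 368 and 537 in Sox2-low libraries, against 1731, 822 and 2255 in Sox2-negative libraries (log2 difference -1.76, SE 0.31, limma unadjusted p = 0.000452). Ffar2, a receptor for short-chain fatty acids, was at 784, 556 and 495 in Sox2-low libraries, against 2011, 456 and 917 in Sox2-negative libraries (log2 difference -0.65, SE 0.33, limma unadjusted p = 0.0836). Sstr1 did not overlap between the groups, whereas Ffar2 was lowest of the 6 libraries in Sox2-negative library 2. Of 9 amine genes 4 were lower, with a median of -1.45. The decarboxylase Ddc, which forms serotonin and dopamine, was at 1369, 1504 and 1477 in Sox2-low libraries, against 6573, 2186 and 4338 in Sox2-negative libraries (log2 difference -1.45, SE 0.31, limma unadjusted p = 0.00151), while Maob, which breaks amines down, was at 1278, 1529 and 2199 in Sox2-low libraries, against 792, 1390.2 and 1873 in Sox2-negative libraries (log2 difference 0.35, SE 0.22, limma unadjusted p = 0.151). The groups overlapped for Maob and not for Ddc. Nerve and glia genes, some of them also active in endocrine cells, had 4 lower and 2 higher of 9. Their highest members Snap25, of the vesicle fusion complex, and the receptor Ret differed by -1.60 (SE 0.41) and -1.38 (SE 0.44). Plasma protein genes that some endocrine cells express had 6 of 11 lower, with retinol-binding protein Rbp4 at -1.28 (SE 0.28) and transthyretin Ttr at -1.37 (SE 0.27). A fit of the 6 libraries alone called 1 gene, the apolipoprotein Apoa1 of this list (log2 difference -2.26, limma BH adjusted p = 0.0459). In the fit of 9 libraries its limma BH adjusted p was 0.192.

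MHC class II, lysozyme and mast cell tryptase transcripts lay lower in Sox2-low libraries on every sort day. Cd74 was at 219, 67.4 and 31.6 in Sox2-low libraries, against 10212, 738 and 463 in Sox2-negative libraries. The groups did not overlap, and Sox2-negative library 1 lay far above the other Sox2-negative libraries (log2 difference -4.27, SE 0.92, limma unadjusted p = 0.00162, BH adjusted p = 0.164, exact permutation p = 0.1). The MHC class II chain H2-Ab1 was at 88.7, 29.0 and 23.3 in Sox2-low libraries, against 4541, 321 and 199 in Sox2-negative libraries (log2 difference -4.04, SE 0.71, limma unadjusted p = 0.000411). Lyz2, the lysozyme of macrophages and neutrophils, was at 18.3, 12.8 and 8.94 in Sox2-low libraries, against 2746, 246 and 282 in Sox2-negative libraries (log2 difference -5.38, SE 0.68, limma unadjusted p = 4.05e-05). Tpsab1, a tryptase of mast cells, had 0, 3 and 0 reads in Sox2-low libraries, against 356, 54 and 222 reads in Sox2-negative libraries. It passed the filter through the Sox2-negative libraries alone, so its p is not given.

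Of the 12 class II and presentation genes 7 were tested, with a median of -3.98. A lower value at an unadjusted limma p under 0.05 was found for 6 of them, beside 10.6% of all genes tested. Without Sox2-negative library 2, 4 were called lower, beside 6.61% of all genes. The summed level of the 12 was 510.3, 265 and 168 in Sox2-low libraries, against 20894, 1569 and 1015 in Sox2-negative libraries, so that Sox2-negative libraries 2 and 3 lay nearer to the Sox2-low ones than Sox2-negative library 1 did, without overlap. The promoters of the chains H2-Eb1 and H2-Aa are shown because both genes, picked after their values were seen, had large log2 differences, -4.30 (SE 0.88) and -3.98 (SE 0.81), with limma unadjusted p of 0.00115 and 0.00109. They give the 250 bases before the RefSeq start, with capitals for the letters CCAAT, which read ATTGG from the other strand, those at the core of the Y box of class II promoters.
H2-Eb1 promoter (GRCm38.p6 chr17:34305617-34305866, plus strand): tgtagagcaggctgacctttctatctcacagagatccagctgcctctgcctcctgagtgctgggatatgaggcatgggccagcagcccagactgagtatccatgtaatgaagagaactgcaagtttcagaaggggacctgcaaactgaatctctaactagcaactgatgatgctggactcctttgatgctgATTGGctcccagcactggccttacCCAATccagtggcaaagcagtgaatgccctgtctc
H2-Aa promoter (GRCm38.p6 chr17:34287824-34288073, minus strand): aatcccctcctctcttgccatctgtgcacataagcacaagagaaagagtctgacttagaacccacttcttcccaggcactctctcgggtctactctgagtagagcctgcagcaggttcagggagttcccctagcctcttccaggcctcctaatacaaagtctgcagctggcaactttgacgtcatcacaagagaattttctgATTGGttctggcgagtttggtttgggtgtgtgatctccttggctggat
These letters were found in 7 of the 9 promoters of this list that the RefSeq table holds (77.8%), against 36.5% of the 10741 promoters of tested genes. The 2 shares are of unlike sets, since the 9 include list members at too few reads to be tested.

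The summed leukocyte markers, unlike the class II sum, overlapped between the groups. In Sox2-low libraries Lcp1 and Rac2 made up most of that sum, so its overlap says little about the other markers. Their summed level over 26 measured genes was 3940.2, 5408 and 7254 in Sox2-low libraries, against 11659, 6887 and 7239 in Sox2-negative libraries. In all 3 Sox2-low libraries 9 of the 26, Cd3e, Itgam and Nkg7 among them, were at 3 reads or fewer, and 2 of the 26 were so in all 3 Sox2-negative libraries. The filter let 16 through, of which 6 (Cd52, Tyrobp, Fcer1g, Csf1r, C1qb and C1qc) passed only because of their Sox2-negative values. The filter thus favoured a lower Sox2-low value in these 6. Of the other 10, 5 were lower and 0 higher at an unadjusted limma p under 0.05, beside 10.6% and 6.05% of all genes tested. Lcp1, an actin-bundling protein also made by epithelium, was at 2063, 4263 and 5057 in Sox2-low libraries, against 1808, 4638 and 3704 in Sox2-negative libraries (log2 difference 0.17, SE 0.14, limma unadjusted p = 0.25). Rac2, a GTPase of blood cells, was at 1442, 738 and 1668 in Sox2-low libraries, against 1913, 1084 and 2151 in Sox2-negative libraries (log2 difference -0.44, SE 0.72, limma unadjusted p = 0.555). Ptprc, the common leukocyte antigen CD45, named after its values were seen, was at 32.8, 82.3 and 206 in Sox2-low libraries, against 156, 206 and 218 in Sox2-negative libraries, and its groups overlapped (log2 difference -1.20, SE 0.89, limma unadjusted p = 0.215). The part of these cells in the other differences was not tested.

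Class I presentation and interferon genes lay lower in Sox2-low libraries by smaller amounts. Of 24 tested genes 14 were lower and 0 higher at an unadjusted limma p under 0.05, beside 10.6% and 6.05% of all genes tested. Their median was -0.72, and 9 were called lower without Sox2-negative library 2, beside 6.61% of all genes. Sox2-negative library 1 was the highest of the 6 for each of the 3 genes given here, and their groups overlapped. The class I heavy chain H2-K1 was at 17194, 14030.3 and 12420.5 in Sox2-low libraries, against 24911, 15139 and 17771 in Sox2-negative libraries (log2 difference -0.39, SE 0.13, limma unadjusted p = 0.017). H2-D1, another heavy chain, was at 25667, 20821 and 19514 in Sox2-low libraries, against 32182, 21999.7 and 25941 in Sox2-negative libraries (log2 difference -0.27, SE 0.14, limma unadjusted p = 0.082). Beta-2 microglobulin (B2m), the shared light chain, named after its values were seen, was at 6381, 3545 and 3422 in Sox2-low libraries, against 16718, 5007 and 6544 in Sox2-negative libraries (log2 difference -0.94, SE 0.17, limma unadjusted p = 0.000443).

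Proliferation genes lay on the other side. Of 24 tested G2 and mitosis genes 21 had higher values in Sox2-low libraries at an unadjusted limma p under 0.05 and 0 had lower ones, with a median of 0.75. Of 24 S phase genes 13 were higher and 0 lower, with a median of 0.61. Over all genes tested 6.05% were higher and 10.6% lower at that p. None passed over all genes. Without Sox2-negative library 2, 20 mitosis and 13 S phase genes were called higher, beside 3.04% of all genes. DESeq2 called 4 and 0 higher, beside 0.727%. Cdc20, which activates the ligase that ends mitosis, was at 6481, 4950.3 and 4919.8 in Sox2-low libraries, against 2756, 4245 and 2874 in Sox2-negative libraries, without overlap (log2 difference 0.74, SE 0.20, limma unadjusted p = 0.00593). Ube2c, the conjugating enzyme of that ligase, was at 8397, 3191 and 3467 in Sox2-low libraries, against 3563, 2878 and 1939 in Sox2-negative libraries (log2 difference 0.74, SE 0.24, limma unadjusted p = 0.0154). The Ube2c groups overlapped, since Sox2-negative library 1 lay above Sox2-low libraries 2 and 3. Mcm6, a part of the replicative helicase, was at 3810.0, 6367 and 6894 in Sox2-low libraries, against 1665, 6396 and 4040.2 in Sox2-negative libraries (log2 difference 0.65, SE 0.23, limma unadjusted p = 0.0221), and the ribonucleotide reductase Rrm1 at 2746, 4549.8 and 5028 in Sox2-low libraries, against 1519, 4883 and 3459 in Sox2-negative libraries (log2 difference 0.43, SE 0.19, limma unadjusted p = 0.0483). On sort day 2 the Mcm6 and Rrm1 values of the 2 groups were close together. The median of the mitosis list was 1.23 on day 1, 0.12 on day 2 and 0.87 on day 3. The summed level of its 24 genes was 69572, 54047 and 56355 in Sox2-low libraries, against 30479.5, 49527 and 30423 in Sox2-negative libraries, without overlap.

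The promoters of Cdc20 and Ube2c, the mitosis genes of highest level, are shown because the members of this list differed in 1 direction. Capitals mark the cell cycle homology region letters TTTGAA, which read TTCAAA from the other strand, and the CCAAT box, which reads ATTGG from there, both known from promoters of mitosis genes, in the 250 bases before the RefSeq start. In Ube2c a pair of boxes on opposite strands shares letters.
Cdc20 promoter (GRCm38.p6 chr4:118437344-118437593, minus strand): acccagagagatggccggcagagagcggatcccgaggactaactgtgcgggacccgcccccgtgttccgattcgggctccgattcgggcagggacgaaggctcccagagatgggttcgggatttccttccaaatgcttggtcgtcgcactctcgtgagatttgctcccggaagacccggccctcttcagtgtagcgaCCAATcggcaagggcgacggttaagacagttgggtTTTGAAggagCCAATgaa
Ube2c promoter (GRCm38.p6 chr2:164769679-164769928, plus strand): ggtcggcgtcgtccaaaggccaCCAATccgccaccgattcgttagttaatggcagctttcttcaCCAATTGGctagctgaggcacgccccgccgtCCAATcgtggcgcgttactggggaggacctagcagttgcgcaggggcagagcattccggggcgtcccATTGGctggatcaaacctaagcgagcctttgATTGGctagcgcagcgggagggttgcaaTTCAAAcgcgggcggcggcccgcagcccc
Among the 21 mitosis genes with a promoter in the table, 7 held TTTGAA (33.3%) and 16 held CCAAT (76.2%), and 7 held both (33.3%). Over the 10741 promoters of tested genes the shares were 10.5%, 36.5% and 4.15%. In 20 promoters of the S phase list TTTGAA was found in 15.0% and CCAAT in 65.0%, and in 11 of the granin list each in 27.3%. A raised share of TTTGAA or CCAAT alone was thus not particular to the mitosis list. A match describes the letters and not a bound factor.

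**Figure D3:**
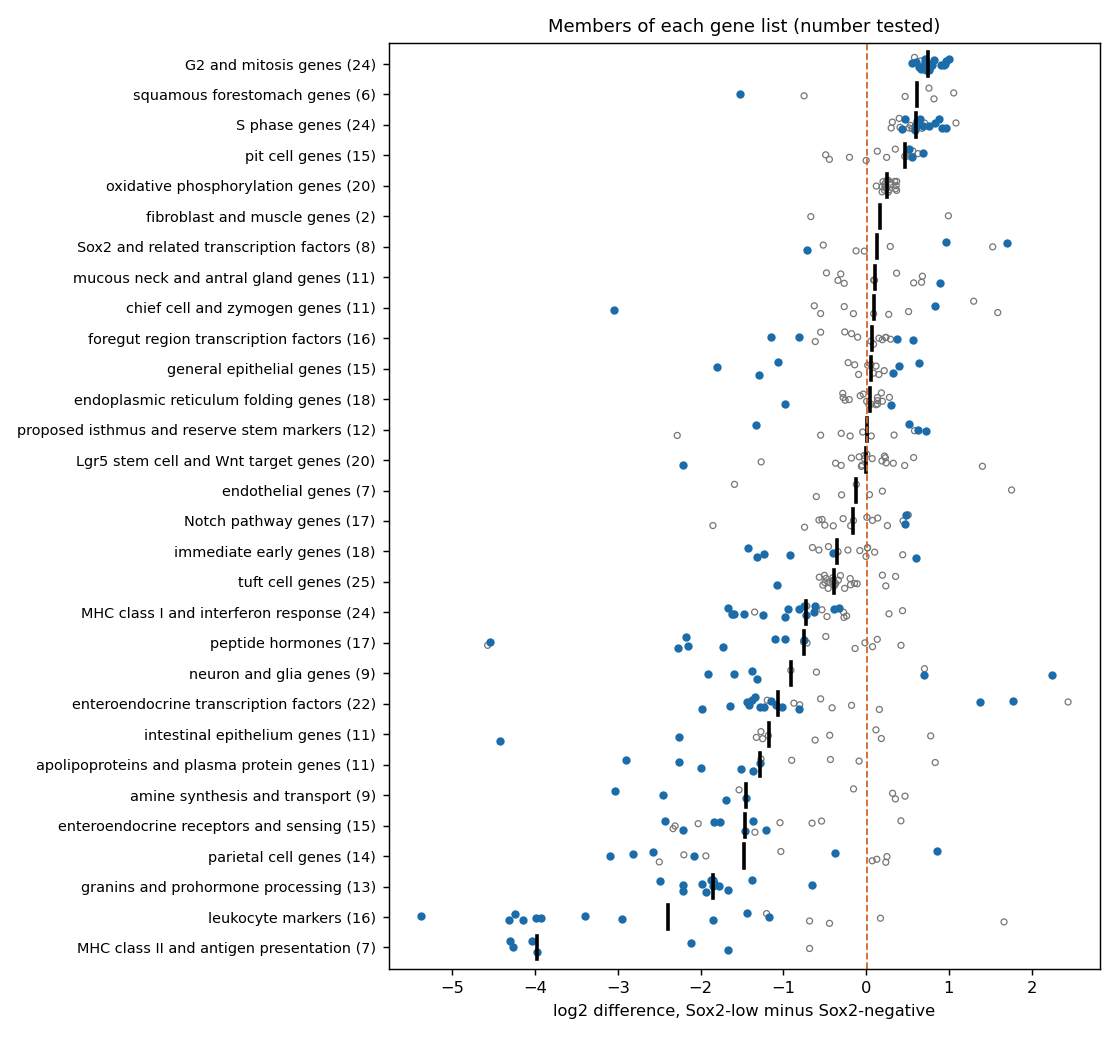
Log2 differences (Sox2-low minus Sox2-negative) of the tested members of 30 gene lists, filled where the unadjusted limma p is under 0.05, with a black bar for each list's median and a dashed line for the median of all genes tested. The tested G2 and mitosis genes lie above 0, and the tested class II and granin genes lie below 0. Leukocyte markers lie on both sides, and 6 of the 16 shown passed the filter only through Sox2-negative libraries.

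The 10 higher genes with the smallest unadjusted p and the same sign on 3 of 3 days, chosen by rule, included RNAs and enzymes of several kinds. Neat1, the RNA scaffold of paraspeckles, was at 3394, 1771 and 1674 in Sox2-low libraries, against 2049, 702 and 1001 in Sox2-negative libraries, with overlap (log2 difference 0.93, SE 0.16, limma unadjusted p = 0.000389). St8sia6, a sialyltransferase, was at 547, 653 and 856 in Sox2-low libraries, against 169, 439.5 and 400.0 in Sox2-negative libraries (log2 difference 1.12, SE 0.25, limma unadjusted p = 0.00181), and the metalloprotease Adam28 at 1252, 1562 and 1472 in Sox2-low libraries, against 438, 1215 and 667 in Sox2-negative libraries (log2 difference 1.0, SE 0.21, limma unadjusted p = 0.00134). For St8sia6 and Adam28 all Sox2-low libraries lay above all Sox2-negative ones. Phgdh, the first enzyme of serine synthesis, was at 1415, 1356 and 1353 in Sox2-low libraries, against 621, 992 and 832 in Sox2-negative libraries (log2 difference 0.78, SE 0.19, limma unadjusted p = 0.00336). Plut, a noncoding RNA beside the Pdx1 gene, was at 1121, 582 and 502 in Sox2-low libraries, against 379, 405 and 297 in Sox2-negative libraries (log2 difference 0.95, SE 0.23, limma unadjusted p = 0.00315). The groups did not overlap for Phgdh or Plut. Besides Sox21, the others were Arhgef39 (1.0, SE 0.22), the RNA AI506816 (0.77, SE 0.16), the fatty acid desaturase Fads1 (0.61, SE 0.14) and the ribosome assembly factor Noc4l (0.58, SE 0.14). All 10 had a limma BH adjusted p between 0.162 and 0.18, and all 10 were called without Sox2-negative library 2 (highest limma BH adjusted p = 0.0496). They had been picked by their p in a fit that holds the same libraries, so these calls are no separate support.

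Among the 10 lower genes of the same rule, the creatine kinase Ckb had the smallest p. It was at 450.5, 382 and 266 in Sox2-low libraries, against 2929.8, 1046 and 1140.2 in Sox2-negative libraries (log2 difference -2.08, SE 0.24, limma unadjusted p = 2e-05), and at 3093, 2625 and 1905 in Sox2-high libraries. Prkcb, a protein kinase C, was at 37.6, 72.8 and 60.2 in Sox2-low libraries, against 383, 257 and 353 in Sox2-negative libraries (log2 difference -2.55, SE 0.38, limma unadjusted p = 0.000139). Lpl, the lipase that frees fatty acids from lipoproteins, was at 361, 548 and 432 in Sox2-low libraries, against 2567, 1092 and 1614 in Sox2-negative libraries (log2 difference -1.91, SE 0.32, limma unadjusted p = 0.000297). In all of these the groups did not overlap. Besides Lyz2 and Tpsab1, the others were Crebrf (-1.32, SE 0.20), the binding protein Igfbp2 (-1.36, SE 0.21), the secreted protein Lgi2 (-3.17, SE 0.50), the phosphatidate phosphatase Lpin2 (-1.11, SE 0.18) and the receptor Mrgpre (-2.42, SE 0.41). Besides Tpsab1, which entered through its Sox2-negative values, these 9 genes had an adjusted p of 0.162 in limma with BH, and all 9 were called without Sox2-negative library 2 (highest limma BH adjusted p = 0.0204). As for the higher genes, the choice by p in the fit of all libraries means that these calls are no separate support.

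Pit cell genes had a median of 0.47, and 3 of 15 were higher at an unadjusted limma p under 0.05, beside 6.05% of all genes tested. Gkn1, a gastrokine secreted by pit cells, was at 402406, 198239 and 154647 in Sox2-low libraries, against 221246, 187159 and 107394 in Sox2-negative libraries. Its relative Gkn2 was at 432287, 226028 and 172968 in Sox2-low libraries, against 230479, 211938 and 93847 in Sox2-negative libraries. Their groups overlapped, with log2 differences of 0.49 (SE 0.25) and 0.63 (SE 0.34) and limma unadjusted p of 0.0895 and 0.103. Limma called 6 of the 15 higher without Sox2-negative library 2, beside 3.04% of all genes. In the gland mucous list the trefoil factor Tff2 was at 496183, 168842 and 141737 in Sox2-low libraries, against 194783, 140065 and 68288 in Sox2-negative libraries (log2 difference 0.89, SE 0.36, limma unadjusted p = 0.0397), and 1 of 11 genes was higher. The protease precursor Pgc, of chief and gland mucous cells, was at 475436, 361700.0 and 218063 in Sox2-low libraries, against 785739, 468009.6 and 176989 in Sox2-negative libraries (log2 difference -0.27, SE 0.35, limma unadjusted p = 0.469), and in the zymogen list the elastase Cela1 differed by 0.84 (SE 0.32), with 1 of 11 higher and 1 lower.

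**Figure D4:**
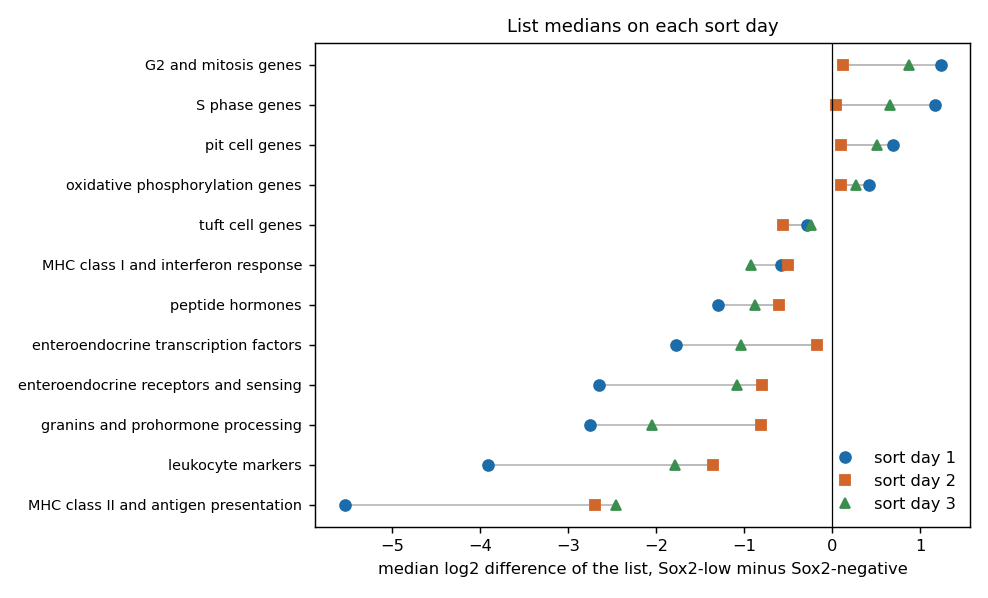
Median log2 difference (Sox2-low minus Sox2-negative) of 12 gene lists on each of the 3 sort days. In 11 of the 12 lists the median of day 2 lies nearer to 0 than that of day 1, and the sign of each median is the same on all 3 days.

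Tuft cell, stem cell and energy genes had few members past an unadjusted p of 0.05, beside 6.05% higher and 10.6% lower over all genes tested. Tuft cell genes had a median of -0.38, with 1 of 25 lower at an unadjusted limma p under 0.05. On all 3 days 15 of the 25 were lower, beside 25.3% of all genes tested. Without Sox2-negative library 2 their median was 0.06. The kinase Dclk1 was at 1879.9, 3320.5 and 7825 in Sox2-low libraries, against 2623, 5989 and 8875 in Sox2-negative libraries (log2 difference -0.50, SE 0.91, limma unadjusted p = 0.595), and the actin regulator Avil at 6759.7, 9757 and 12863 in Sox2-low libraries, against 4369, 10188 and 11634 in Sox2-negative libraries (log2 difference 0.24, SE 0.15, limma unadjusted p = 0.141). Sox2-low and Sox2-negative libraries overlapped in both. Stem cell and Wnt target genes had a median of -0.01 (0.02 with TMM scaling), with 1 of 20 lower. Prom1 and the ion transporter Slc12a2 differed by 0.22 (SE 0.16) and 0.23 (SE 0.22), and the receptor Lgr5 itself, named after its values were seen, was at 229, 508 and 379 in Sox2-low libraries, against 223, 689 and 281 in Sox2-negative libraries (log2 difference 0.01, SE 0.27, limma unadjusted p = 0.978). In the oxidative phosphorylation list 0 of 20 genes had an unadjusted limma p under 0.05 and the median was 0.26. On all 3 days 18 of the 20 were higher, beside 24.8% of all genes tested. The ATP synthase subunits Atp5a1 and Atp5b differed by 0.28 (SE 0.15) and 0.29 (SE 0.14).

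Other lists were small or divided or, for parietal cell genes, mostly lower. Over all genes tested 6.05% were higher and 10.6% lower at an unadjusted limma p under 0.05. In lists of the sizes given here and in the next paragraph, counts of 1 or 2 lie near those shares. Proposed isthmus markers had 3 higher and 1 lower of 12, with the survivin gene Birc5 at 0.72 (SE 0.22) and the elongation factor Eef1b2 at 0.06 (SE 0.18). Foregut factors had 2 higher and 2 lower of 16, with Klf5 at 0.23 (SE 0.16) and Elf3 at 0.06 (SE 0.11). Parietal cell genes had a median of -1.48 with 5 lower and 1 higher of 14, and 9 were lower on all 3 days, beside 25.3% of all genes tested. In 6 every Sox2-low library lay below every Sox2-negative one, beside 9.03% of all genes. The list's medians were -1.77, -1.16 and -1.16 on days 1, 2 and 3, but its summed level overlapped between the groups. Without Sox2-negative library 2, limma called 1 of the 14 lower and 1 higher. The members of highest level, the carbonic anhydrase Car2 and ezrin (Ezr), differed by 0.24 (SE 0.20) and 0.25 (SE 0.13). Notch genes had 2 higher of 17, with Hes1, a target of the pathway, at 0.49 (SE 0.19) and Hes6 at 0.08 (SE 0.13). Immediate early genes, which respond to stress of cell isolation, had 1 higher and 5 lower of 18, with Klf4 at 0.60 (SE 0.23) and Ier2 at 0.02 (SE 0.11), and the part of cell isolation in the other differences was not tested.

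General epithelial genes had 3 higher and 3 lower of 15, with the keratins Krt19 and Krt8 at 0.64 (SE 0.23) and 0.40 (SE 0.17). Endoplasmic reticulum genes had 1 of 18 in each direction, with the chaperones Hspa5 at 0.18 (SE 0.14) and Pdia3 at -0.07 (SE 0.12). Intestinal genes had 2 lower of 11, with villin (Vil1) at 0.12 (SE 0.12) and Clca1 at -0.62 (SE 0.67). Endothelial genes had none of 7 in either direction, with Pecam1 at -0.30 (SE 0.28) and Esam at -0.60 (SE 0.33). Squamous genes had 1 lower of 6, loricrin (Lor), at -1.53 (SE 0.40), and Sprr1a at -0.75 (SE 0.50). Of 11 measured fibroblast and muscle genes 2 were tested. The collagen Col1a2 had 0, 3 and 0 reads in Sox2-low libraries, against 0, 0 and 17 in Sox2-negative libraries, and Rgs5, of pericytes, differed by 0.99 (SE 0.53). Counts in these lists are of an unadjusted limma p under 0.05, and 1 of the lower genes in each of the parietal, intestinal and plasma protein lists passed the filter only because of Sox2-negative libraries.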

How the data were processed

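The deposited expression values are a signal: gene counts that the authors divided by 1 size factor per library. Tools listed in the submitters' processing notes are STAR, HTSeq, edgeR and DESeq2, with the build mm9, and without a role for each. Whether strand was used in counting is not stated, so antisense and overlapping genes cannot be told apart. The number of sorted cells per library is a count that the authors deposited in a sort sheet. Of 26400 features, 433 without a name (0.0877 to 0.482% of reads) and 25 named by a calendar date were left out. Within a library all values above 0 were whole multiples of the value of 1 read (tolerance 0.01 read, 100% of values).

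The test was limma 3.58.1 (R 4.3.3), with a trend and robust variance, applied to log2(normalized count + 1) in the 9 antrum Sox2-Tomato libraries, with the sort day as a block, BH adjustment and a threshold of 0.05. Genes needed 10 normalized counts in 3 libraries. Same-numbered libraries share a sort day in 3 of 3 cases by the sort sheet, and their deviations from the group means correlated at 0.586, 0.432 and 0.515 on days 1, 2 and 3. Alternatives were fits without the block, with edgeR 4.0.16 and DESeq2 1.42.0 on recovered reads, with other filters, scaling or pseudocount, and without each Sox2-low or Sox2-negative library or each day. The steps were tested on simulated data. In the table, 6 other per-library columns and the corpus libraries were not used here. Named genes were 4 fixed genes, the 10 genes with the smallest unadjusted p in each direction with the same sign on 3 of 3 days and a mean of at least 100, the 2 highest members of each list, and hormones with a mean of at least 100. Genes outside this rule are said to be so. The comparison and the lists were chosen with earlier results of these data known. Promoter letters are from RefSeq (GRCm38.p6), matched by symbol, with no coordinates converted between builds. Some items are not reported here.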

Additional observations from a re-analysis of the deposited data

How the results depend on the processing

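No gene passed with the replicate block (the sort day) in limma, and none passed without the replicate block, where 966 genes had an unadjusted p under 0.05 against 2513 with it. The count also stayed at 0 with a pseudocount of 10, without a filter, with TMM scaling and by edgeR. The fit of the 6 libraries called 1 gene, a lower one that is 1 list member. DESeq2 called 799 genes (101 higher, 698 lower, 86 list members). After seeing the data 3 alternatives were added. Voom with quality weights called 3902 (1809 higher, 2093 lower, 218 list members), with library weights between 0.285 and 3.43. DESeq2 without Sox2-negative library 2 called 3255 (1714 higher, 1541 lower, 204 list members), and edgeR without it 1249 (362 higher, 887 lower, 117 list members). Leaving out 1 Sox2-low or Sox2-negative library or 1 sort day in limma gave 0 to 1440 calls, 0 to 454 higher, 0 to 986 lower and 0 to 125 list members, with 0 except without Sox2-negative library 2 or sort day 2 (113 list members). The cause was not tested. The Sox2 difference passed by DESeq2 (1.61) and by voom (1.23). Without Sox2-negative library 2 it passed by limma (2.18), DESeq2 (2.10) and edgeR (1.96), and without sort day 2 by limma (2.27). In limma it ranged from 0.90 to 2.27 with a library or day left out, with the lowest value without sort day 1. Of 91 named genes tested, 79 kept their sign in each of the 19 alternatives that gave them a value (17 for Col1a2, which is not one of the 79, 11 for Tpsab1, and 19 for the other 89). In limma without Sox2-negative library 2, 52 passed, and by DESeq2 39, beside 9.65% and 5.75% of all genes given an adjusted p. Part of the named genes had been picked by p and by sign over the days in the same libraries, so these counts are no separate support. The 12 named genes that did not keep their sign had no test past the threshold in the limma fit of 9 libraries, and of these Clca1 passed under voom (-1.22). With a library or day left out, their log2 differences ranged over -1.40 to 0.21 for Clca1, -1.80 to 0.67 for Col1a2, -1.15 to 0.33 for Dclk1, -0.0541 to 0.23 for Eef1b2, -0.24 to 0.80 for Ghrl and -0.0203 to 0.16 for Hes6. The ranges were -0.0333 to 0.0542 for Ier2, -0.35 to 0.74 for Penk, -0.67 to 0.00642 for Pgc, -1.02 to 0.21 for Rac2, -0.17 to 0.12 for Sox9 and -0.30 to 0.41 for Sst. Under voom the sign turned for Hes6 (-0.00767), Pgc (0.14) and Sox9 (0.13). With TMM scaling it turned for Sox9 (0.00387) and Sst (0.0114), with edgeR for Sst (0.0241), and with DESeq2 for Sox9 (0.0184) and Sst (0.0502). Without Sox2-negative library 2 it turned by DESeq2 for Dclk1 (0.40), Pgc (0.0578), Rac2 (0.32), Sox9 (0.19) and Sst (0.0142), and by edgeR for Dclk1 (0.21), Pgc (0.0133), Rac2 (0.11) and Sox9 (0.14). The summed leukocyte level kept its direction, with log2 ratios of -0.99 to -0.16. Genes at a few reads, such as Tpsab1 and Col1a2, are limited by depth.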

Other observations

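Some genes outside the lists were called lower in Sox2-low libraries both by DESeq2 and by limma without Sox2-negative library 2, and did not pass in the limma fit of all 9 libraries. They were picked after their values were seen, by size among genes with a mean normalized count of at least 500. Prepronociceptin (Pnoc), a neuropeptide precursor, was at 2515, 1923 and 2698 in Sox2-low libraries, against 24499, 4445 and 15609 in Sox2-negative libraries (log2 difference -2.34, SE 0.49, limma BH adjusted p = 0.162). Galr1, a receptor for the neuropeptide galanin, was at 155, 264 and 429 in Sox2-low libraries, against 1399, 631 and 1677 in Sox2-negative libraries (log2 difference -2.13, SE 0.40). The plasma protein genes Ambp and Vtn were at 4876, 3713 and 7065 in Sox2-low libraries, against 70810.1, 9887 and 41007 in Sox2-negative libraries, and at 40.5, 185 and 23.3 in Sox2-low libraries, against 2935, 919.6 and 274 in Sox2-negative libraries. The fatty acid transporter Cd36 was at 199.7, 875 and 986 in Sox2-low libraries, against 2159.8, 2396 and 4014 in Sox2-negative libraries. For these 5 genes every Sox2-low library lay below every Sox2-negative one.

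On the higher side, the sulfotransferase Chst4, which modifies mucin sugars, was at 3381, 2973 and 3614 in Sox2-low libraries, against 835, 2254 and 1706 in Sox2-negative libraries (log2 difference 1.17, SE 0.30, limma BH adjusted p = 0.185), and the glutathione transferase Gstm3 at 20669, 10679.5 and 9692 in Sox2-low libraries, against 7242, 8004 and 4592 in Sox2-negative libraries (log2 difference 1.0, SE 0.28). Spc25, a kinetochore protein, was at 2093, 1136 and 1236 in Sox2-low libraries, against 613, 868 and 700.2 in Sox2-negative libraries, and the kinesin Kif2c at 909.6, 1259 and 1124 in Sox2-low libraries, against 218, 994 and 595 in Sox2-negative libraries. The groups overlapped for Kif2c and not for Chst4, Gstm3 and Spc25.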
